A study of Caenorhabditis elegans with 2 samples.

Results

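PAX-1 peaks whose summit lay inside a non-coding RNA gene were examined in late Caenorhabditis elegans embryos. The members were all nuclear peaks of the authors' pooled list with the summit in a gene of biotype ncRNA or lincRNA, in no exon of a protein-coding gene, and with no overlap of a tRNA, snRNA or snoRNA gene. The rule used position only. It found 488 of 29981 nuclear pooled peaks (1.63%), 393 in ncRNA genes and 95 in lincRNA genes. An ncRNA or lincRNA gene lay at 579 nuclear summits, of which 30 were left out for a coding exon and a further 61 for a small RNA gene.

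The animals were mixed-sex late embryos of strain OP117, genotype unc-119(ed3) III; wgIs117, in which PAX-1 tagged with enhanced green fluorescent protein (eGFP) was made from an inserted transgene. Chromatin immunoprecipitation and sequencing (ChIP-seq) was done on whole animals in 2 biological replicates, which form 1 group with no untagged or mutant group beside it. A whole animal mixes all its cell types, so a site bound in few cells and a site bound weakly in many cannot be told apart. The labels do not say in which cells the transgene is active, and the authors called peaks against a control alignment. The ce11 lists hold 30000 peaks for replicate 1, 29397 for replicate 2 and 30000 for the pooled replicates, and the thresholded list holds 696 nuclear peaks. None of them gives read counts, so sequencing depth is unknown.

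PAX-1 is a transcription factor of the paired-domain family, whose members bind DNA through the paired domain and act in embryonic development. The annotation classes as ncRNA a large set of mostly short transcripts with sequence names and no assigned function, while lincRNA genes are longer, lie between coding genes and often carry linc- names. Many C. elegans messenger RNAs receive a spliced leader by trans-splicing, so the annotated start of a coding gene can mark the splice site and lie downstream of where transcription begins.

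To show what DNA lay under the peaks, the plus strand of ce11 (RefSeq sequence) is given 5′ to 3′ for 8 summit windows of 151 bp. They are 6 of the 8 highest members, the highest member at a ribosomal protein gene and a thresholded lincRNA peak. Capitals mark AGAGAC or CGTCTC on either strand, 2 motifs that were frequent in thresholded windows and that share the letters GAGAC on 1 of the strands. T04C12.22, the highest member, covered chrV:11083675-11083825, ZK381.57 chrIV:6984792-6984942, F22E12.10 chrV:10466730-10466880 and C56C10.15 chrII:6589011-6589161. C30E1.9 covered chrX:16943982-16944132, Y37A1B.332 chrIV:14032857-14033007, F54C9.17 chrII:8569471-8569621 and linc-128 chrV:1151432-1151582.
T04C12.22: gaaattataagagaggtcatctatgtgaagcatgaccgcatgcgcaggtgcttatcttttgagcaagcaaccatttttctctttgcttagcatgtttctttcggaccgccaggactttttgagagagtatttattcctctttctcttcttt
ZK381.57: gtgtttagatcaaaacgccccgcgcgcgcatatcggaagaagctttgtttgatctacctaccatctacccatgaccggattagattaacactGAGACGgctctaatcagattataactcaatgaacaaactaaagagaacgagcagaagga
F22E12.10: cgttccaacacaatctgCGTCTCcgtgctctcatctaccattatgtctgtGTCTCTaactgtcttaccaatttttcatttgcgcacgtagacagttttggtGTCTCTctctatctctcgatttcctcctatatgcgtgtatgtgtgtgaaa
C56C10.15: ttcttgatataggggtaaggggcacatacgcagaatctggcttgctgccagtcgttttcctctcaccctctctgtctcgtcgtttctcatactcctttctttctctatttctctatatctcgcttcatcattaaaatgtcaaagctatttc
C30E1.9: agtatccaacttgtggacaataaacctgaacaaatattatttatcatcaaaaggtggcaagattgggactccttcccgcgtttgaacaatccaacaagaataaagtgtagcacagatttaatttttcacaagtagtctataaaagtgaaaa
Y37A1B.332: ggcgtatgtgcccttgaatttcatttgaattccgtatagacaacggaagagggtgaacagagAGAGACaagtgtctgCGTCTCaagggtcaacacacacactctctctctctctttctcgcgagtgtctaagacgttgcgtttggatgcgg
F54C9.17: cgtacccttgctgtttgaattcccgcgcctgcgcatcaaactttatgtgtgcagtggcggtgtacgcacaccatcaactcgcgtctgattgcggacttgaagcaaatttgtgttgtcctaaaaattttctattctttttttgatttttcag
linc-128: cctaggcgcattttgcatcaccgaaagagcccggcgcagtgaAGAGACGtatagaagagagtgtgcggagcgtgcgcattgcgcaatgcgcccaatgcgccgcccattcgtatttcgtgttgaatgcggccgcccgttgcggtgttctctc
F22E12.10 held 3 marked matches, Y37A1B.332 and linc-128 2 each, ZK381.57 1 and the other 4 windows none. The matches in linc-128 overlap each other. Y38A10A.8 and Y37A1B.330, the members of the 8 highest that are not shown, held no marked match. The window of linc-34, the highest lincRNA member, is also not shown and held none. The G+C content ran from 33.8% in C30E1.9 to 58.9% in linc-128, with 40.4% in T04C12.22 and 49.0% in Y37A1B.332.

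The peaks in ncRNA and lincRNA genes had a higher signal than pooled peaks in general. The signal is the authors' own value per peak, on a scale that is not stated, and is compared within a list only. Its median was 24.6 over the 488 members (95% interval from order statistics, 23.2 to 26.1), against 20.5 over all nuclear pooled peaks. Peaks in no coding exon and in no ncRNA, lincRNA or small RNA gene, the other non-exon peaks, also had a median of 20.5 (n = 24193), and peaks with the summit in a coding exon 19.9 (n = 4985). The ranges overlapped throughout, from 15.2 to 181 in the members and from 15.2 to 651 in the other non-exon peaks. In the pooled list, 68.0% of the members stood above the middle rank.

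The authors' thresholded list, called optimal in their naming, consisted of the pooled peaks with the highest signal, down to 58.3, so presence in it restates the signal. A member was counted in it when it overlapped a thresholded peak by at least 1 bp. That held for 61 of 488 members, or 12.5% (exact binomial 95% interval 9.70 to 15.8), beside a background of 2.68% of all nuclear pooled peaks and 2.71% of the other non-exon peaks. Counting only members that were themselves in the list gave 56, or 11.5%, beside 2.32% of all nuclear pooled peaks. The remaining 5 members, with signals of 25.8 to 50.8, lay next to a thresholded peak. These intervals cover the counting of peaks only, and neighbouring peaks are not independent, with 26 members overlapping another member.

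Per length of sequence, the peaks were about as frequent in these genes as elsewhere, and the thresholded peaks were more frequent. With each base counted once and coding exons left out, the ncRNA and lincRNA genes spanned 1.23 Mb and held 398 member peaks per Mb. The other sequence outside coding exons spanned 69.4 Mb and held 348 peaks per Mb. Thresholded peaks numbered 45.7 per Mb in the former (56 peaks) and 8.32 per Mb in the latter (578 peaks).

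Each replicate's own list gave similar shares when the rule was applied to it. Replicate 1 had 609 such peaks, of which 74 (12.2%) overlapped 1 of the high peaks of that list, that is, as many of its highest peaks as the thresholded list holds, beside 2.72% of all its nuclear peaks. Replicate 2 had 374, of which 49 (13.1%) did so, beside 2.7% of all. The exact binomial 95% intervals were 9.66 to 15.0 and 9.85 to 16.9. The median signal was 15.0 against 11.5 over all nuclear peaks of replicate 1 and 13.4 against 12.7 in replicate 2. The share of high peaks was thus alike in both lists, while the number of peaks and the gap in median signal were larger in replicate 1.

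Of the pooled members, 242 (49.6%) overlapped a peak in both replicate lists, against 36.5% of all nuclear pooled peaks. The difference lay in replicate 1, whose list held 80.1% of the members and 62.6% of all pooled peaks, while that of replicate 2 held 65.0% and 64.7%. A total of 22 members overlapped no peak of either replicate. The median rank of the members found was 4001 in replicate 1 and 8416 in replicate 2, against 10871 and 11234 for all nuclear pooled peaks found there. Over the 242 members in both lists, Spearman's rho of the replicate ranks was 0.488, against 0.286 over 10948 pooled peaks in both. These are descriptions across peaks of the same pair of libraries, and the pooled call drew on both.

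Among the 61 members in the thresholded list, 28 were among the high peaks of both replicates, 21 of replicate 1 only, 7 of replicate 2 only and 5 of neither. ZK945.13, at 59.2, was the only 1 of them with no peak in replicate 2. F29G9.10, which lies 126 bp before rpt-2, an ATPase subunit of the proteasome, ranked 137 in replicate 1 and 28983 in replicate 2. Y48G8AL.17, before the adaptor complex gene aps-3, ranked 184 and 25426. Y71A12B.31, before the ribosomal protein gene rps-6, went the other way with ranks of 1446 and 170. The calls of ZK945.13, F29G9.10 and Y48G8AL.17 rest mostly on replicate 1. Y71A12B.31 had a signal of 29.2 in replicate 1, against a median of 11.5 over that list.

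**Figure D1:**
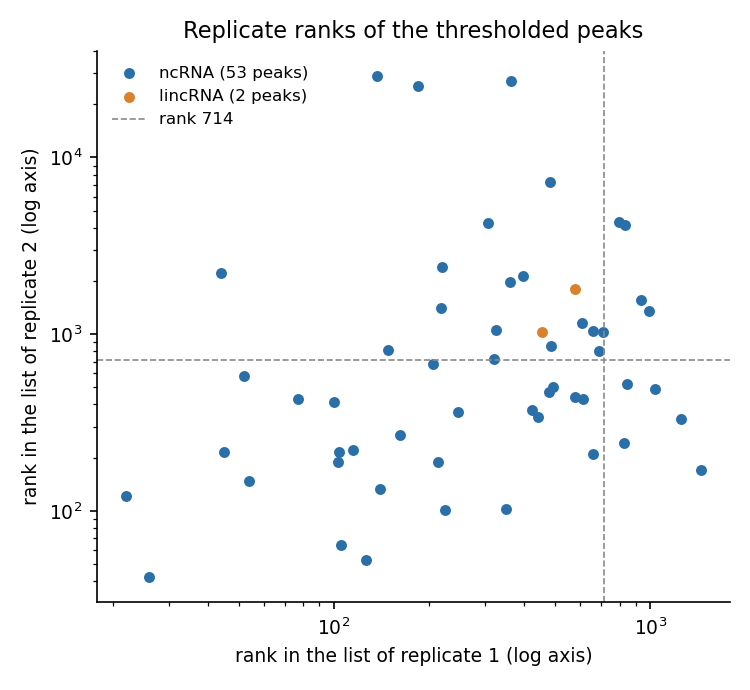
Rank in replicate 2 against rank in replicate 1 (log axes, rank 1 highest) for the 55 members that were themselves in the thresholded list and had a peak in both replicates. Dashed lines mark the last rank counted as high; most points lie within it in replicate 1, and the lowest ncRNA peak in replicate 2, F29G9.10, has rank 28983.

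The highest member lay in T04C12.22 (WBGene00197991), a 148 bp ncRNA gene on chromosome V, 11083642 to 11083789, minus strand. Its peak was 86 bp wide, the only member narrower than the others. Its pooled signal was 181, rank 26 of the pooled list, with 112 in replicate 1 (rank 26) and 62.3 in replicate 2 (rank 42). The nearest coding start was that of act-1, an actin gene, 2698 bp away, with the summit downstream of that start and outside the gene. A second member of this gene cluster, T04C12.18, lay 365 bp upstream of act-2 and had a signal of 61.6, with ranks of 794 and 4287. T04C12.14, whose nearest start was also act-2, had 23.0 and no peak in replicate 2. Of 3 members nearest to an actin start, 2 were thus in the thresholded list, beside 3 of 16 nuclear pooled peaks and 1 of 12 other non-exon peaks. Both had a peak in each replicate.

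The second highest member lay in Y38A10A.8 (WBGene00202143), 150 bp, on chromosome V, 6100735 to 6100884, and stood 272 bp upstream of crt-1, the calcium-binding chaperone calreticulin. Its signal was 151, with ranks of 22 in replicate 1 and 122 in replicate 2. ZK381.57 (WBGene00201535), 148 bp, followed with 144 and ranks of 54 and 147, in an intron of prkl-1, the Prickle homologue of planar cell polarity. These 3 members were high in both libraries.

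Y37A1B.330 and Y37A1B.332, of 448 and 196 bp, lie on opposite strands of chromosome IV, and the summits in them were about 1 kb apart. Their signals were 129.5 and 117. Y37A1B.330 ranked 105 and 64 in the replicates, whereas Y37A1B.332 ranked 44 in replicate 1 and 2210 in replicate 2. The nearest coding start, that of Y37A1B.7, was 9816 and 10848 bp away. This pair was the most distant from a coding start among the 20 highest members.

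F22E12.10 (145 bp) had a signal of 129 and ranks of 52 and 577, 1712 bp upstream of egl-9, the prolyl hydroxylase that controls the hypoxia factor HIF-1. C56C10.15 (351 bp) had 124 and ranks of 126 and 53, 431 bp upstream of icd-1, a subunit of the nascent polypeptide-associated complex. Further members of the 20 highest lay upstream of coding starts of genes of varied roles. T04C9.10 had 111 in an intron of frm-2, before a start of that gene. C25F6.12 had 103 before the junction scaffold gene dlg-1 at 4486 bp, and R160.8 had 86.0 before dpy-23, a subunit of the clathrin adaptor AP-2. Y65B4BR.10 had 109 before wwp-1, a ubiquitin ligase, and W06B11.7 had 103 before puf-9, an RNA-binding Pumilio family gene. R01B10.7 had 101 before seip-1, seipin of lipid droplets, and Y38F2AR.17 had 96.5 before trap-3, a subunit of the translocon-associated protein complex. C37H5.16 had 88.6 before C37H5.5, and F54D5.22, inside dhgd-1, had 84.7 before the DnaJ co-chaperone gene dnj-13.

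Of the 20 highest members, 13 lay within 500 bp of a coding start and 3 inside a coding gene. All 20 were among the high peaks of replicate 1, and 18 were among those of replicate 2. Their host genes were 67 to 14770 bp long with a median of 188.5 bp.

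Ribosomal protein genes were the nearest coding start of 7 members (1.43%), against 78 of all nuclear pooled peaks (0.26%). Of the 7, 6 were within 500 bp of the start and 6 were in the thresholded list, beside 31 of the 78 and 25 of 64 other non-exon peaks. F54C9.17 stood 381 bp upstream of rpl-5, a gene of the large ribosomal subunit, with a signal of 107 and ranks of 140 and 133. D1007.22 stood 257 bp upstream of rpl-24.1, with 107 and ranks of 100 and 414. F56F3.10 stood 267 bp upstream of rps-1, of the small subunit, with 104 and ranks of 225 and 101. C26F1.14 stood 244 bp upstream of rpl-39, with 79.4 and ranks of 441 and 341. Y71A12B.31 had 69.0 at rps-6, and C49H3.15 had 36.6 at rps-2 and was outside the thresholded list. AH9.7, more than 500 bp from its nearest coding start, that of rpl-11.2, had 25.8. It was counted as thresholded only through a neighbouring peak. The 7 members with a ribosomal protein gene as the nearest coding start ran from 25.8 to 107, with a median of 79.4.

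The other families looked at gave few members. Heat shock and DnaJ genes, proteasome genes and histone genes were nearest to 1 member each (0.205%), against 0.317%, 0.0967% and 0.0834% of all pooled peaks. The members of the first pair are named above and were thresholded, beside 13 of 95 and 6 of 29 pooled peaks at these families. M163.19, 16 bp upstream of the linker histone gene his-24, had 42.1 and was not thresholded, beside 4 of 25 pooled peaks at histone genes. Homeobox ceh genes were nearest to 5 members (1.02%, against 0.464% of all pooled peaks). Of these 1 was in the thresholded list, C27A12.11 in ceh-2 at 69.2, beside 3 of 139 pooled peaks at ceh genes. Nuclear hormone receptor genes had 2 members (0.41%, against 1.61% of all pooled peaks). The chemoreceptor families had 2 (0.41% against 1.08%) and collagens 1 (0.205% against 0.387%). None of these members was thresholded, beside 13 of 482, 0 of 325 and 1 of 116 pooled peaks at the same families. So few members show no difference in that share. Genes named unc had 9, with 1 in the thresholded list, T19F4.6 at 69.2 near the spectrin gene unc-70, beside 8 of 392 pooled peaks and 7 of 333 other non-exon peaks at unc genes. Tubulin and tRNA synthetase genes had 0, against 0.0434% and 0.11% of all pooled peaks.

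Over all members, peaks in ncRNA genes were higher than peaks in lincRNA genes. The 393 ncRNA members had a median signal of 26.1 (24.6 to 28.2), and 59 of them (15.0%, interval 11.6 to 18.9) were in the thresholded list. The 95 lincRNA members had a median of 21.8 (19.4 to 23.1), and 2 (2.11%, interval 0.256 to 7.40) were in it. The lincRNA share was close to the background of 2.68%. In replicate 1 alone the shares among its highest peaks were 71 of 516 (13.8%) and 3 of 93 (3.23%), and in replicate 2 they were 47 of 290 (16.2%) and 2 of 84 (2.38%). The order of the classes was the same in both libraries, and the difference was not tested. Presence in the replicate lists differed too, with 83.2% of ncRNA and 67.4% of lincRNA members in replicate 1, and 62.6% and 74.7% in replicate 2. The lincRNA members lay farther from coding starts, at a median of 2382 bp against 1324 bp, and in longer genes, with a median of 2003 bp against 168 bp. Only 7 lincRNA members (7.37%) were within 500 bp of a start, against 121 ncRNA members (30.8%).

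The lincRNA members also lay in sequence of lower G+C content, and their medians were not lower than those of ncRNA members under 35% G+C. In windows of 151 bp around the summit, 36 lincRNA members under 30% G+C had a median of 21.7, against 20.9 in 42 ncRNA members. At 30 to 35% the medians were 21.0 (n = 24) and 20.5 (n = 38), and at 35 to 40% they were 22.5 (n = 13) and 22.6 (n = 50). At 40 to 45% the median was 20 in 12 lincRNA members against 25.8 in 89 ncRNA members. At 45 to 50% the medians were 18.9 (n = 5) and 32.2 (n = 87), and at 50% or more 28.6 (n = 5) and 33.0 (n = 87). At 50% or more 1 of 5 lincRNA and 18 of 87 ncRNA members were in the thresholded list. In every other step the lincRNA share was the lower. It was 0 of 5 against 23.0% at 45 to 50% and 1 of 12 against 15.7% at 40 to 45%. Below 40% no lincRNA member was thresholded, against 6.0% of ncRNA members at 35 to 40%, 7.89% at 30 to 35% and 2.38% under 30%. The part of base composition in the difference between the classes was not tested.

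linc-34 (WBGene00194814, X, 13400747 to 13401468, minus strand) held the highest lincRNA peak, at 63.9, with ranks of 580 and 1795. Its summit was 14 bp inside the 5′ end of the gene. linc-128 (V, 1150906 to 1153207) held a peak of 58.4 with ranks of 453 and 1029, 4764 bp from the start of cmd-1, calmodulin. linc-90, on chromosome III, followed outside the threshold with 57.9 and ranks of 1140 and 144. linc-143, in the daf-2 insulin receptor gene, had 54.8 with rank 1000 in replicate 1 and no peak in replicate 2. linc-91 had 49.6 with ranks of 459 and 17778. Of 170 annotated linc- genes, 58 held 85 members, with a median signal of 21.3.

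Members just inside the threshold were F57B10.17 at 59.0, C35B8.6 at 58.6 and linc-128 at 58.4. Just outside were linc-90 at 57.9, F52B10.22 at 57.0 and ZK1193.8 at 57.0. The gap at the threshold was thus small against the 15.2 to 181 range of the members.

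Among other named non-coding RNAs, the genes yrn-1 (Y RNA), rpr-1 (RNase P RNA), mrpr-1 (RNase MRP RNA), rncs-1, tts-1 and lep-5 held 0 members. No gene of these biotypes carried an sls- name. The host genes of the other members carry sequence names, apart from the linc- genes and a few such as tts-2, at 19.2. tts-2 was picked out after its value was seen.

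Longer host genes held a peak more often than short ones. Of 7958 annotated ncRNA and lincRNA genes, with a median length of 141 bp, 517 (6.5%) had a member summit inside. That held for 2.26% of genes under 100 bp, 5.56% from 100 to under 200 bp, 10.9% from 200 to under 1000 bp and 57.4% of those of 1000 bp or more. Longer genes offer more sequence for a summit. With each summit counted in its longest gene only, the summits per Mb of summed gene length were 258, 306, 352 and 381. That way of counting lowers the classes under 1000 bp, where 47, 236 and 164 genes had a summit inside but 38, 185 and 155 members were counted. The rise along the classes thus depends in part on it. Where several such genes shared a summit, as for 75 members, the longest was taken as the host. The 444 hosts gave a median length of 210.5 bp over the members. In 323 members the host was shorter than the peak itself, which was 344 bp wide in nearly all cases, so the peak reached beyond the gene.

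The signal was lower in the longest genes. Median signals were 26.0, 25.6, 24.6 and 22.4 in the 4 length classes, from the shortest to the longest. The thresholded shares were 5 of 38 (13.2%), 27 of 185 (14.6%), 25 of 155 (16.1%) and 4 of 110 (3.64%). The longest class was mostly lincRNA, 75 of 110 members. Of its 4 thresholded members, 2 lay in the ncRNA gene C30E1.9, 1 in the ncRNA gene AH9.7 and 1 in linc-128. Only 2 of the 4 were themselves in the list. The parts of length and biotype in the lower share were not tested. Over all members Spearman's rho of length and signal was -0.119. In genes of 1000 bp or more, the summit lay a median of 53.5% of the way along the gene.

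**Figure D2:**
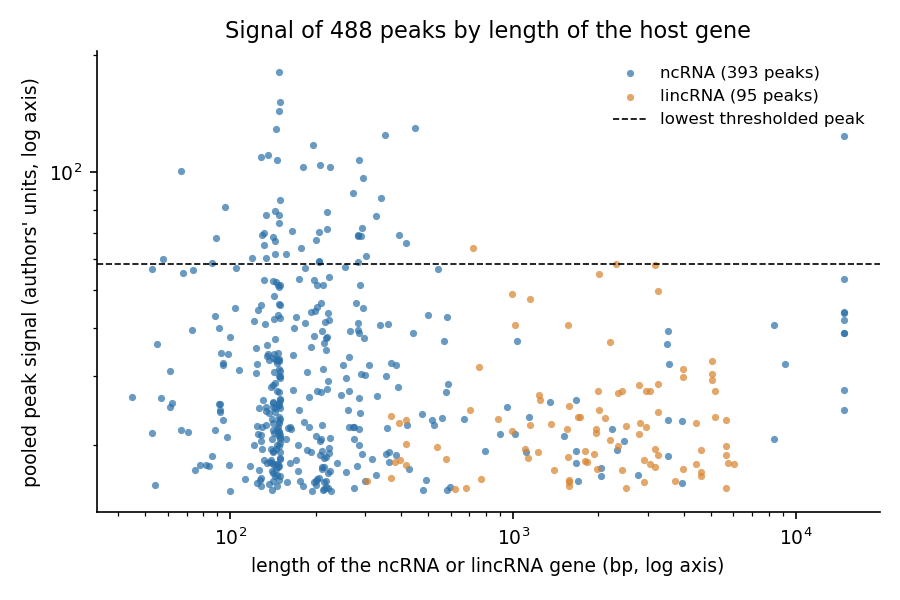
Pooled signal of each of the 488 members (log axis) against the length in bp of its ncRNA or lincRNA gene (log axis). The dashed line is the lowest thresholded peak, 58.3; nearly all points above it are ncRNA genes under 1000 bp, and the point above it at the far right is C30E1.9 (14770 bp).

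C30E1.9 (WBGene00022951) on chromosome X, 16929914 to 16944683, plus strand, was both the longest host at 14770 bp and the host of most members. It held 9 peaks with signals of 24.6 to 124 and a median of 41.8. The summits lay in a pair near the 5′ end, at 53.2 and 43.9, and in a group of 7 in the last 5 kb of the gene. The highest, at 124, stood 14.1 kb into the gene and ranked 45 in replicate 1 and 215 in replicate 2. Its neighbour at 27.7 overlapped the same replicate peaks, as did the pair near the 5′ end with the replicate 2 peak at rank 619. The 9 members are therefore fewer than 9 separate sites in the replicates. The other 7 ranked from 842 to 24623 in replicate 1.

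The highest nuclear peak of the whole pooled list also touched this gene. It covered chrX:16929627-16929950 with a signal of 651, rank 3 of the pooled list, and ranked 2 and 11 in the replicates. It shared 37 bp with C30E1.9, but its summit lay 137 bp before the 5′ end, so it was no member. The nearest coding start was 5841 bp away.

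**Figure D3:**
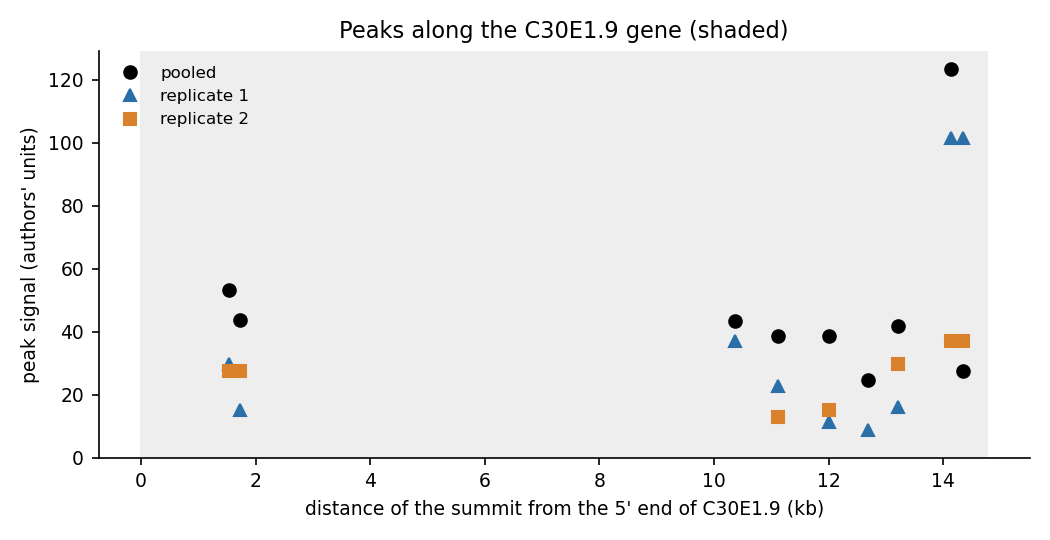
Signal of the 9 peaks with a summit in C30E1.9 (shaded, 14.8 kb) against the distance of the summit from the 5′ end of the gene in kb, in the pooled list and for the overlapping peak of each replicate. A replicate with no overlapping peak has no point, and the scales of the 3 lists differ; the highest pooled peak, 124, stands at 14.1 kb.

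Of the other hosts, 416 held 1 member each and 28 hosts, C30E1.9 included, held 72 members between them. linc-167, on chromosome I, held 4 with signals of 15.5 to 23.2, and linc-91 held 4 with 18.9 to 49.6. linc-110, on chromosome II, held 3 within 29.3 to 32.9. linc-22 and linc-129 held 3 each with highest values of 19.4 and 31.3. The second longest host, Y59E1B.1 on X at 9094 bp, held 1 peak at 32.2, and the third longest, WBGene00220260 on IV at 8360 bp, held 2, at 40.5 and 20.7. None of these genes had a member in the thresholded list.

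A coding start lay within 500 bp of 128 members (26.2%), against 28.0% of all nuclear pooled peaks and 25.8% of the other non-exon peaks. The median distance was 1556 bp, against 1188 and 1275 bp. Of the 128, 115 (89.8%) were upstream of the start, at a median of 237 bp, against 73.8% of the other non-exon peaks within that distance. Part of that follows from position, since outside coding genes all 94 members and 99.1% of the others were upstream. Inside coding genes, 21 of 34 members (61.8%) and 36.5% of the others lay upstream of the nearest start. The host ncRNA ran on the strand of the coding gene in 39 of the 115 and on the opposite strand in 76. Where several such genes shared a summit, only the strand of the longest was counted. The same split over annotated ncRNA genes near coding starts was not taken, so no preference can be read from these counts.

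Peaks near a start were higher than peaks far from one. The median signal was 31.4 in the 128 members within 500 bp, 23.4 in the 60 from there to 1000 bp, 22.8 in the 98 from there to 2000 bp and 23.6 in the 202 beyond 2000 bp. The thresholded shares were 28 of 128 (21.9%), 7 of 60 (11.7%), 7 of 98 (7.14%) and 19 of 202 (9.41%). In the other non-exon peaks the shares in the same classes were 6.0%, 1.57%, 2.05% and 1.27%. The members' share was thus the higher at each distance, also beyond 500 bp, where it was 33 of 360 (9.17%) against 1.57%. The replicate lists gave 8.91% against 1.72% beyond 500 bp in replicate 1 and 10.5% against 1.59% in replicate 2. All 28 thresholded members within 500 bp were upstream of the start. For 24 of them this follows from position, since they lay outside coding genes, where all 94 members within that distance were upstream.

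**Figure D4:**
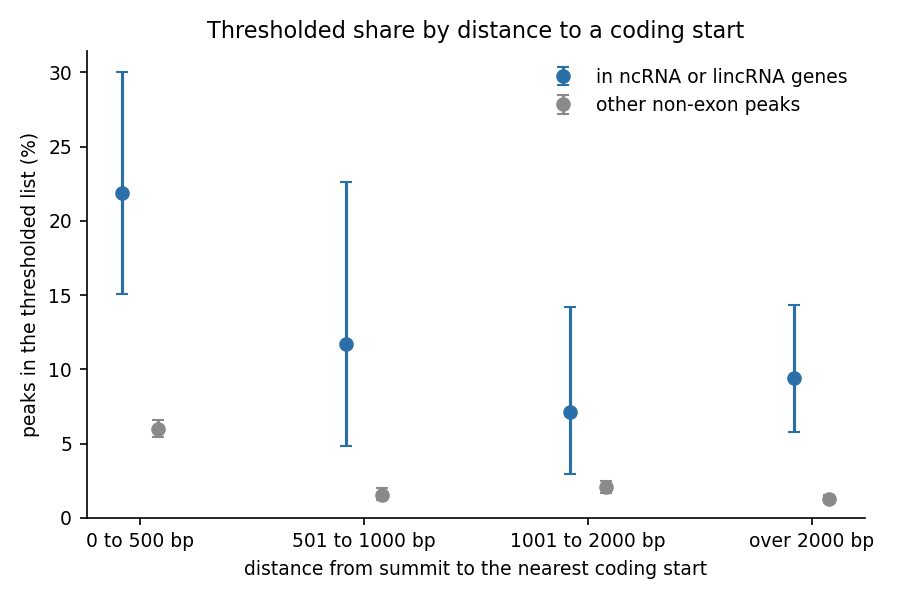
Share of peaks in the thresholded list (%) by distance from the summit to the nearest coding start, for members and other non-exon peaks, with exact binomial 95% intervals. The members fall from 21.9% within 500 bp to 7.14% between 1000 and 2000 bp and stand above the other peaks in each of the 4 classes.

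Introns of coding genes held 118 members (24.2%), against 45.8% of the other non-exon peaks. Their median signal was 23.1 and 6 (5.08%) were in the thresholded list, against 1.12% of 11082 other peaks in introns. Outside coding genes the median was 25.2 in 370 members and 55 (14.9%) were in the list, against 4.06% of 13111 others. The 6 thresholded members inside coding genes lay in prkl-1, frm-2, dhgd-1, asd-2, ceh-2 and vav-1. Within the ncRNA or lincRNA gene itself, 446 summits were in an exon and 42 in an intron. Some members overlapped other annotation, with 7 over a pseudogene, 13 over a piRNA gene and 5 over a miRNA gene.

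Chromosome X held 143 members (29.3%), against 17.7% of all nuclear pooled peaks. It also held 2558 of the 7958 annotated genes, and 6.14% of its ncRNA and lincRNA genes had a member, close to the 5.77% to 7.93% of the autosomes. The thresholded share was 19.2% of 52 members on I, 14.7% of 75 on II, 6.67% of 60 on III, 13.8% of 80 on IV, 17.9% of 78 on V and 7.69% of 143 on X. The share among all pooled peaks ran from 2.14% on IV to 3.46% on I. Exact intervals of the chromosomes overlapped, for example 3.90 to 13.3 on X and 9.63 to 32.5 on I.

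The members lay in sequence of higher G+C content than other peaks, and G+C content moved with the signal. In 151 bp windows around the summit, the median G+C was 42.4% in the members (quartiles 33.6 and 48.3) and 30.5% in the other non-exon peaks. The annotated ncRNA genes had a median of 43.0% in windows around their midpoints, the lincRNA genes 34.4%, and the nuclear genome as a whole 35.4%. The members followed that split, with 43.7% in ncRNA and 32.5% in lincRNA genes. Thresholded members, counted by overlap, had 47.0%, and all nuclear peaks that were themselves in the thresholded list 43.7%. Spearman's rho of G+C and signal was 0.357 over the 488 members and 0.151 over the 24193 other non-exon peaks. Both groups come from the same libraries and differ in base composition.

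The thresholded shares were also set side by side within steps of like G+C. At 45 to 50% G+C, 20 of 92 members (21.7%, interval 13.8 to 31.6) and 17.8% of 962 others were in the thresholded list. At 50% or more the shares were 19 of 92 (20.7%) and 17.8%, and at 40 to 45% they were 15 of 101 (14.9%, interval 8.56 to 23.3) and 9.65%. The others' share lay inside the members' interval in these 3 steps. Below that, 3 of 63 members (4.76%) at 35 to 40% compared with 3.18% and 1 of 78 (1.28%) under 30% with 0.464%, both inside the members' interval. At 30 to 35% the share was 3 of 62 (4.84%, interval 1.01 to 13.5) against 0.67%, which lay outside it. The members' share was the higher in each of the 6 steps. The groups differed in how they filled the steps, since 40% or more G+C was reached by 58.4% of the members and 13.8% of the other non-exon peaks. Beside the gap of 12.5% against 2.71% over all peaks, the ratio of the shares was smaller in 5 of the 6 steps and larger at 30 to 35%. The part of base composition in the gap was not tested.

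**Figure D5:**
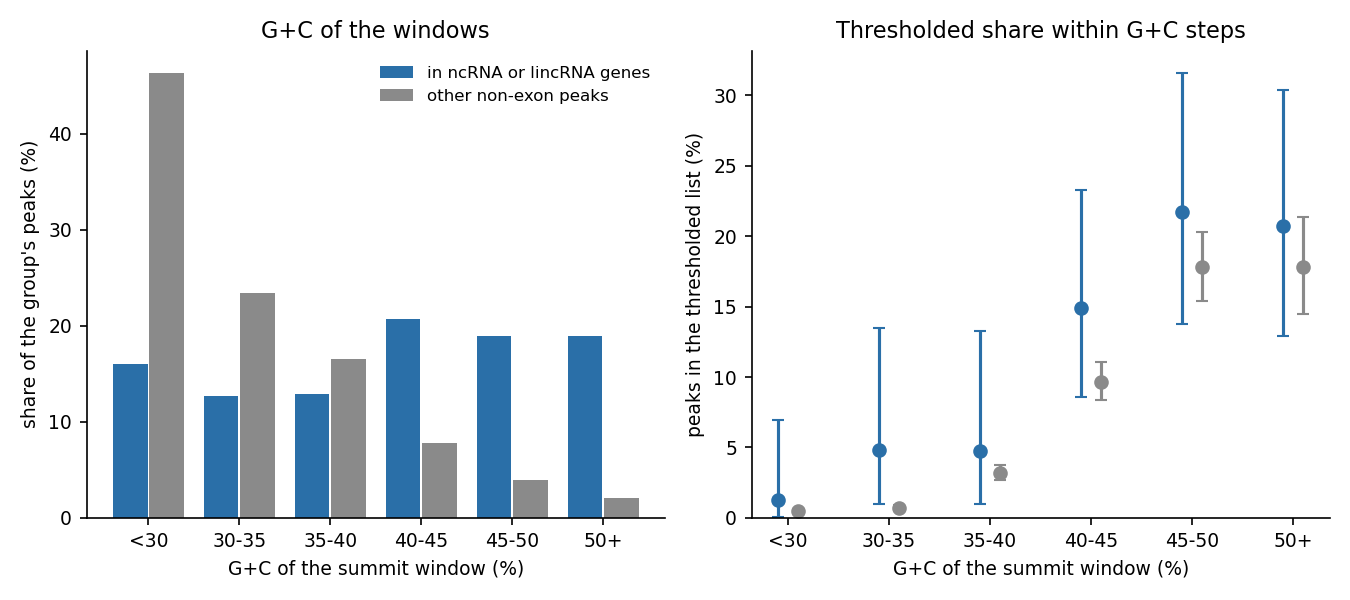
Left, share of each group's windows (%) in steps of G+C of the 151 bp summit window; right, share of peaks in the thresholded list (%) within each step, with exact binomial 95% intervals. Under 30% G+C lie 46.3% of the other non-exon peaks, and at 40% or more 58.4% of the members; at 45 to 50% the shares are 21.7% in members and 17.8% in the others.

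The steps were also taken apart by distance to a coding start. Beyond 500 bp, 10 of 65 members (15.4%) at 45 to 50% G+C and 14.6% of 630 others were in the thresholded list, and 10 of 75 (13.3%) at 40 to 45% compared with 6.84%. At 50% or more the shares were 17.3% of 52 and 11.4% of 306. In the 3 lower steps they were 2.08% against 1.52% at 35 to 40%, 4.08% against 0.312% at 30 to 35% and 1.41% against 0.226% under 30%, with 4 thresholded members in all. Within 500 bp the shares were 37.0% of 27 members and 23.8% of 332 others at 45 to 50%, and 25.0% of 40 and 28.3% of 184 at 50% or more. There the members were also higher at 40 to 45% (19.2% against 14.0%), 35 to 40% (13.3% against 7.24%) and 30 to 35% (7.69% against 1.66%), and under 30% none of 7 members was thresholded, against 1.37%. Only in the steps at 50% or more and under 30% were the members the lower, and at 50% or more the others' 28.3% lay inside the members' interval of 12.7 to 41.2.

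A total of 14 motifs were searched on both strands of the same windows. AGAGAC was in 17.2% of the members, 6.34% of all nuclear pooled peaks and 6.25% of the other non-exon peaks. CGTCTC was in 14.1%, 4.80% and 4.67%. GAGAGA was in 27.0% of the members and 9.57% of the other non-exon peaks (3011 of all 29981 nuclear pooled peaks). These motifs and GCGTCTC (7.38%, against 2.24% of all pooled peaks) overlap in their letters and are not separate counts. In thresholded members, counted by overlap, AGAGAC was in 34.4% and CGTCTC in 31.1%. These shares were close to the 31.0% and 28.3% of all nuclear peaks that were themselves in the thresholded list. The windows of F22E12.10 and Y37A1B.332 shown above are examples.

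The motif shares also moved with G+C content. In windows of 45 to 50% G+C, AGAGAC was in 20.7% of the members and 26.5% of the other non-exon peaks, and at 50% or more in 27.2% and 35.1%. In the 4 steps below 45% the members were the higher, with 23.8% and 15.0% at 40 to 45%, 14.3% and 8.18% at 35 to 40%, 6.45% and 4.67% at 30 to 35%, and 3.85% and 1.88% under 30%. GAGAGA was the more frequent in members in each step from 30 to 50%, for example 34.7% and 22.9% at 40 to 45% and 43.5% and 36.1% at 45 to 50%. It was the less frequent at 50% or more (40.2% and 47.8%) and under 30% (2.56% and 3.58%). CGTCTC was the less frequent in members at 45 to 50% (16.3% and 23.4%), at 50% or more (25.0% and 36.7%) and at 30 to 35% (1.61% and 2.86%). It was the more frequent in members at 40 to 45% (20.8% and 12.6%), at 35 to 40% (12.7% and 6.03%) and under 30% (1.28% and 0.759%).

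TCACGC and GTCACG, parts of the paired-domain site, were each in 3.69% of the members, against 1.99% and 1.97% of all nuclear pooled peaks. In thresholded members, counted by overlap, they were in 6.56% and 4.92%. In all nuclear peaks that were themselves in the thresholded list they were in 6.47% and 6.18%. GCGCGC was in 5.53% against 1.70%, and CCCGCC in 6.56% against 2.74%. A+T-rich motifs were less frequent, with TATAAA in 12.5% against 20.8%, AAAAAAAA in 15.4% against 26.4% and GAANNTTC in 6.35% against 11.8%. GATAAG (4.71% against 4.93%) and CACGTG (2.05% against 1.88%) were at the level of all pooled peaks. GGTTCGA, the box B of RNA polymerase III genes, was in 0.615% against 0.971%, and peaks over tRNA genes were left out by the rule. A match is a run of letters in the window and no measured binding site.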

How the data were processed

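ChIP-seq against eGFP-PAX-1 was done on 2 biological replicates of 1 group. Per the deposited file listing, the authors called peaks and background per replicate and on the pooled replicates, each against a control alignment, and passed these lists to the irreproducible discovery rate procedure, which gave the thresholded list. The sources used here do not name the aligner, the peak caller or the threshold. The signal of each peak and its −log10 q are the authors' deposited values; the −log10 q had a median of 0.0382 in the pooled list, so most pooled peaks are weak. The labels do not say how the cultures of the replicates were kept apart. No read counts are given, so depth is unknown. Columns of values matched to no sample numbered 0.

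Peaks were used on ce11 with the gene models of Ensembl 115 and the RefSeq genome of that assembly; the ce10 lists were not used. Summits were compared with genes, exons and coding transcript starts, and replicate peaks were matched by most shared bases (at least 1 bp). Near a start means within 500 bp. G+C and motifs were read within 75 bp of the summit on either side. Values are descriptions, with exact binomial or order-statistic 95% intervals and no tests. Steps were checked on simulated data. The tools were matplotlib 3.10.9, scipy 1.17.1, pandas 2.3.3 and numpy 2.4.6 under Python 3.11.15.

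The members, lists and motifs were chosen with earlier results of these data known. Named were the 20 highest members, up to 30 in the thresholded list, members of the fixed families, the 5 highest linc- genes, the 5 hosts with most members and the 3 longest hosts. Any further name was picked with its value in view. Alternatives changed the rule of membership, the thresholds, the distances, the windows and the replicate lists used.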

Additional observations from a re-analysis of the deposited data

How the results depend on the processing

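Across 67 alternative settings, 46 values stayed within the tolerance and 21 moved beyond it; the tolerance was the 95% interval of the value given and, for the number of members, a factor of 1.5, which 370, 374 and 609 members met. Requiring at least 50% of the peak in 1 ncRNA or lincRNA gene left 290 members, with 20.7% near a coding start and a median gene length of 416.5 bp. Genes of 200 bp or more alone gave 265 members, 20% and 538 bp. The thresholded share was 11.4% and 10.9% in these sets. With 1 replicate left out, the number of members ran from 374 to 609, the thresholded share from 12.2% to 13.1% and the median signal from 13.4 to 15.0, on the scale of each replicate's list. The 357 highest thresholded peaks gave a share of 6.15%, beside 1.32% of all pooled peaks. A distance of 250 bp gave 15.2% near a start and 1000 bp gave 38.5%, beside 15.8% and 45.2% of all. Matching replicate peaks by 50% of the shorter peak gave 39.1% in both lists, beside 26.6% of all. Counting only members that are themselves thresholded was chosen after seeing the data and gave 11.5%. Motif shares moved under 9 of 28 window settings, and in all 28 the order against all pooled peaks was as given. There is 1 group, so replicates could not be paired across groups. Unknown depth and a signal scale that is not stated limit what peaks with low signal can show.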
